A study of Mus musculus with 18 samples.

Results

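Homeostatic microglia genes are the genes by which resting brain macrophages are usually recognised, and 9 of them were followed here: the receptors CSF1R, P2RY12, P2RY13, GPR34 and CX3CR1, the membrane protein TMEM119, the transcription factor SALL1, the cytoplasmic protein AIF1 and the secreted protein OLFML3. They were named for their known role in microglia, in a choice made with earlier results of these data known, and all 9 were present among the 15644 genes of the count table and passed the low-count filter, as did 15635 genes in all. The data were RNA-seq of whole hippocampus from 18 C57/B6 mice, which were 6 younger mice of 9 months, 6 older mice of 20 months and 6 older mice of 20 months given 3TC (lamivudine), an inhibitor of reverse transcriptase, at 2 mg/mL in the drinking water for 6 weeks. Each group held 3 males and 3 females, both control groups drank water without the drug, and every mouse was a separate animal. The study asked whether the drug alters changes of the aging brain.

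Depth bears on these genes because most counts were not in genes. Each mouse had 34.6 to 49.1 M counts in total, and genes received only 6.01 to 13 M of them, repeat elements taking 63.4 to 85.7%. CPM below is the usual depth-scaled count, taken over genes and repeats together with TMM factors, and the 9 genes summed to 57.8 to 78.2 CPM per mouse. A single gene therefore rested on between 53 raw counts (GPR34 in its lowest mouse) and 1195 (CSF1R in its highest). In whole tissue, fewer microglia and less RNA per microglial cell cannot be told apart.

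Microglia are the resident macrophages of the brain parenchyma. In the healthy brain they survey their surroundings with moving processes, and this state is kept by survival signals through CSF1R, by neuronal fractalkine acting on CX3CR1, by nucleotides and lipids acting on P2RY12, P2RY13 and GPR34, and by TGF-beta signalling together with the factors PU.1, IRF8 and SALL1. In mice, microglia that turn to a reactive or disease-associated state lower several of these genes, whereas AIF1, which encodes the antigen IBA1 used to stain microglia, is retained.

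Several of these genes share their position with others, which matters because the strand setting of the counting is not given in the sources used here. In GENCODE vM21 on GRCm38 (the mm10 assembly), P2RY12 (chr3:59216272-59262871, minus strand) and P2RY13 (chr3:59207892-59210882, minus strand) lie beside each other, both inside MED12L, which runs on the plus strand. GPR34 (chrX:13632089-13640858, plus strand) lies inside CASK, which runs on the minus strand. CX3CR1 (chr9:119901616-120069879, minus strand) has a long annotated span that overlaps WDR48, GORASP1, TTC21A, CSRNP1 and XIRP1, with no exon base shared with any of these, and shares 78 of its 4505 exon bases with an antisense transcript. The others are AIF1 (chr17:35170991-35176068), OLFML3 (chr3:103722222-103738001) and TMEM119 (chr5:113793729-113800516), all on the minus strand, and SALL1 (chr8:89027235-89044162, minus strand).

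The bases before a gene's start are where lineage factors such as PU.1, encoded by SPI1, often bind in microglia, so 3 promoters are shown as examples, 2 that hold the core letters of its motif and 1 that does not. RefSeq gave 8 windows for 6 of the 9 genes, and the letters stood in 2 of the 8, those of AIF1 and P2RY13, and in none of P2RY12, OLFML3, SALL1 and CX3CR1. They are the 250 bases upstream of the RefSeq start (GRCm38.p6), each on the minus strand and written 5′ to 3′, with the letters GAGGAA or, for the other strand, TTCCTC in capitals.
AIF1 (chr17:35176053-35176302): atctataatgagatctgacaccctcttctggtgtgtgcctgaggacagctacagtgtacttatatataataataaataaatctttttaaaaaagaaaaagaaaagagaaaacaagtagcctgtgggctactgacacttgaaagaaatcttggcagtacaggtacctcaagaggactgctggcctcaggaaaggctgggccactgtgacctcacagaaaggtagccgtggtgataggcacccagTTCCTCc
P2RY13 (chr3:59210883-59211132): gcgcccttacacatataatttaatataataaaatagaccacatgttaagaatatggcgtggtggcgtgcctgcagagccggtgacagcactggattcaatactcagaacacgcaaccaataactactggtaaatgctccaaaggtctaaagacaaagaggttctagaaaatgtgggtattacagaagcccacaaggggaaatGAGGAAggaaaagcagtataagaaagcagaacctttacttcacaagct
CX3CR1 (chr9:120068297-120068546): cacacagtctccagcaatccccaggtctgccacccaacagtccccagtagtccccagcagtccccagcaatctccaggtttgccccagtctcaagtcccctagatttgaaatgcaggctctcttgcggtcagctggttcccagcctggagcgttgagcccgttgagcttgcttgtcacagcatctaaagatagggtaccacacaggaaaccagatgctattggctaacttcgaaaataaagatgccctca
In AIF1 the match began 7 bases before the RefSeq start, on the opposite strand, and in P2RY13 it began 48 bases before it, on the gene's own strand. The RefSeq starts of AIF1 and CX3CR1 differ from the GENCODE ones given above. By GENCODE the AIF1 match lies inside the gene (to 35176068), and so does the whole CX3CR1 window (to 120069879). Among 32851 promoters of the same length, 23.3% held these letters on either strand, a share near that of the members, so a match is a description of the sequence and not of binding, and the lack of one in CX3CR1 says only that these letters are not in this window.

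The members stood at different distances above the lowest levels of these libraries. Per kb of exon, which allows genes to be compared, the median over 18 mice was 153 raw counts for CSF1R, 109 for P2RY12, 94.1 for CX3CR1, 86.0 for TMEM119, 70.6 for SALL1, 63.6 for AIF1, 54.3 for GPR34, 51.4 for P2RY13 and 33.2 for OLFML3. A list of 15 genes that belong to other tissues (such as CSN2, a milk casein, and INS1, an insulin) had a median of 25.7 to 50.7 counts per kb in these mice, with 39.8 in the middle. CSF1R was thus 3.84-fold above that level (median of the per-mouse ratios), P2RY12 2.83-fold and CX3CR1 2.49-fold, while AIF1 was 1.55-fold, GPR34 1.46-fold and P2RY13 1.37-fold above it. The first-ranked 6 genes were above the other-tissue level in all 18 mice. GPR34 was above it in 14 mice, P2RY13 in 16 and OLFML3 in 5, with a ratio of 0.895, its exons being counted at 6.16 kb with the long annotated isoform. The 9 genes thus ran from about the other-tissue level to clearly above it, and CSF1R, the highest, ranked above 81.2% of the 15587 genes with a length. How much of the counts near the other-tissue level came from microglial RNA was not tested.

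The order was not equally firm throughout. CSF1R exceeded P2RY12 in 18 of 18 mice, P2RY12 exceeded CX3CR1 in 17, TMEM119 exceeded SALL1 in 16 and P2RY13 exceeded OLFML3 in 18. Neighbours that did not separate were CX3CR1 and TMEM119, and GPR34 and P2RY13, each in that order in only 11 of 18 mice. SALL1 was above AIF1 in 13 mice, and AIF1 above GPR34 in 14.

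**Figure D1:**
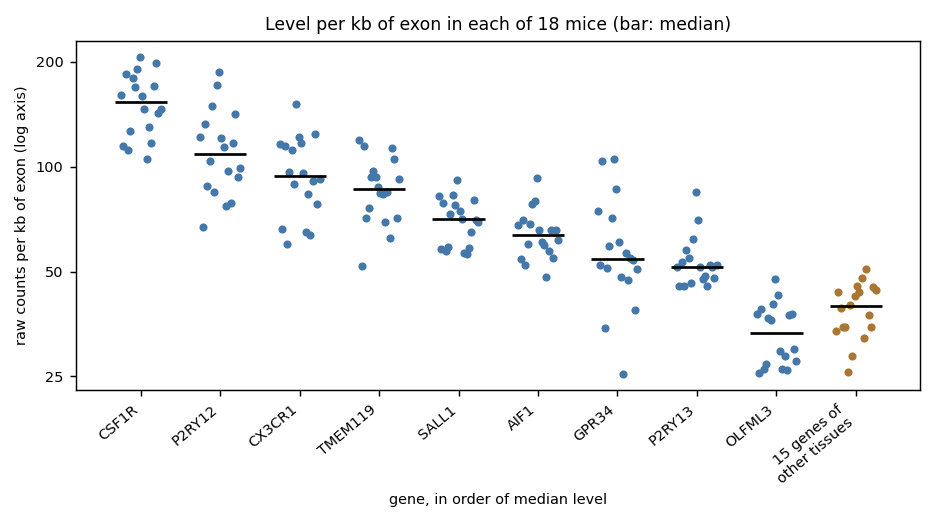
Raw counts per kb of exon (log axis) for each homeostatic microglia gene and, at the right, the median of 15 genes of other tissues, with one point per mouse (18 mice) and a bar at the median. CSF1R, with a median of 153, lies clear of the other-tissue genes, whose median is 39.8, while OLFML3, with 33.2, lies among them.

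Aging was asked first, by comparing older with younger mice. All 9 genes were higher on average in older mice, by a median of 0.15 on the log2 scale against -0.00053 over all features, but the differences were small and 0 of 9 passed the test, for which edgeR called 0.0119% of the 16774 genes and repeats. DESeq2 also called 0 of the 9 genes. Unadjusted p-values of edgeR ran from 0.0979 to 0.642, so that 0 of 9 were under 0.05, and every adjusted p was 1. Only 67 of all features (0.399%) were under 0.05, a share far below the 0.05 that p-values without any difference would give. The fit was thus conservative here, and 0 of 9 does not set these genes apart. The sum of the 9 genes was 64.2 ± 4.04 CPM (SD, n = 6) in younger and 69.7 ± 5.11 in older mice, ranges of 57.8 to 68.7 and 63.7 to 76.3 that overlap.

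Of the receptors, CSF1R, which binds CSF1 and IL-34 and on which microglial survival depends, was the most abundant and moved least. Its lowest, median and highest values were 18.8, 20.9 and 24.0 CPM in younger and 20.3, 21.9 and 24.5 CPM in older mice. Only 1 older mouse was above every younger one, and the log2 fold change was 0.045 ± 0.095 (SE), with a 95% interval of -0.16 to 0.25. CSF1R lies at chr18:61100598-61132149 on the plus strand and shares 873 of its 5774 exon bases with HMGXB3 on the opposite strand.

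P2RY12, the ADP receptor that steers microglial processes towards released nucleotides, ran from 5.56 through 6.54 to 7.55 CPM in younger and from 5.38 through 7.43 to 8.97 CPM in older mice. Of the older mice 3 were above every younger one and 1, CFO2, was below them all. The log2 fold change was 0.16 ± 0.15 (SE), with an interval of -0.15 to 0.48.

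P2RY13, a second ADP receptor, stood at 2.72, 3.16 and 3.42 CPM in younger and at 2.87, 3.44 and 4.24 CPM in older mice. Here 3 older mice lay above the younger range and none below it, and the log2 fold change was 0.15 ± 0.13 (interval -0.12 to 0.42). MED12L, within which both P2Y genes lie, had a log2 fold change of 0.08 ± 0.087 in the same comparison.

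GPR34, a receptor of lysophosphatidylserine, had the highest fold change of the 9. It was at 2.06, 2.65 and 3.28 CPM (lowest, median, highest) in younger and at 2.26, 3.27 and 4.63 CPM in older mice. The groups overlapped, with 3 of 6 older mice above every younger one, all of them female, and the log2 fold change was 0.37 ± 0.21 (interval -0.084 to 0.82). CASK, its host gene, stood at -0.07 ± 0.15.

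CX3CR1, the receptor of fractalkine, ranged from 7.98 over 9.92 to 11.7 CPM in younger and from 8.47 over 11.5 to 12.9 CPM in older mice. Of the older mice 3 were above the younger range, and the log2 fold change was 0.17 ± 0.13 (interval -0.11 to 0.45).

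TMEM119, a membrane protein that marks microglia and separates them from other macrophages, had almost the same median in both groups. Values were 4.03, 5.15 and 6.18 CPM in younger and 3.78, 5.14 and 6.80 CPM in older mice, with 1 older mouse above and 1 below the younger range. Its log2 fold change was 0.07 ± 0.13 (interval -0.19 to 0.34), and became -0.014 when the older mouse CFO1 was left out.

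SALL1, a zinc-finger factor that keeps microglial identity, had the smallest spread of log2 CPM over the 18 mice once group means were removed (SD 0.099). It was at 8.04, 8.68 and 9.40 CPM in younger and at 8.82, 9.28 and 10.7 CPM in older mice, so that all 6 older mice exceeded the younger mean and 3 exceeded every younger mouse. The log2 fold change was 0.12 ± 0.076 (interval -0.038 to 0.28).

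AIF1, an actin-binding protein, ran from 1.76 through 2.35 to 2.57 CPM in younger and from 2.30 through 2.54 to 2.67 CPM in older mice, again with all 6 older mice above the younger mean but only 2 above the younger range. Its log2 fold change was 0.16 ± 0.12 (interval -0.093 to 0.42). OLFML3, a secreted olfactomedin-domain protein, stood at 4.18, 4.79 and 5.45 CPM in younger and 4.85, 5.10 and 5.74 CPM in older mice, with 1 older mouse above the younger range and a log2 fold change of 0.12 ± 0.099 (interval -0.087 to 0.33).

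**Figure D2:**
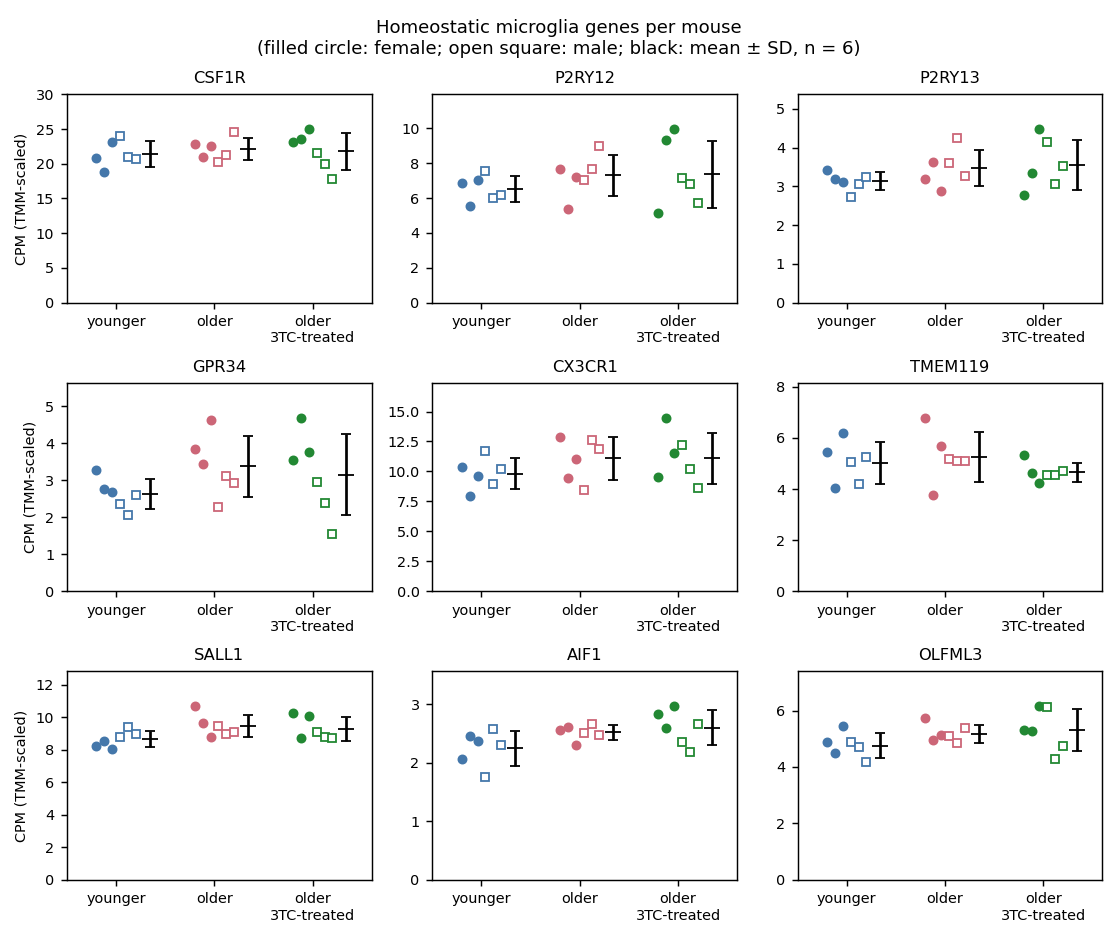
CPM (TMM-scaled) of each homeostatic microglia gene in each mouse, by group, with filled circles for females, open squares for males and black bars for the mean ± SD (n = 6). Groups overlap for every gene, and for GPR34 the females of each group lie above its males, at 2.69 to 3.28 against 2.06 to 2.61 CPM in younger mice.

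Older 3TC-treated mice were then compared with older mice. Of the 9 genes 5 were above 0 and 4 below, the median log2 fold change was 0.0032 against 0.0012 over all features, and 0 of 9 passed the test, as did 0% of all features with edgeR and with DESeq2. In edgeR, 0 of 9 had an unadjusted p under 0.05, compared with 194 of all features (1.16%). The count above 0 rested on single mice, being 1 without DFO8, 2 without DMO1 and 3 without DFO5, CMO1 or CFO2. Sums over the 9 genes were 58.0 to 78.2 CPM in older 3TC-treated mice, with a mean of 68.8 ± 7.92 (SD, n = 6), a range that contains all 6 older mice.

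TMEM119 had the lowest fold change. In older 3TC-treated mice it was at 4.23, 4.57 and 5.33 CPM (lowest, median, highest), inside the older range of 3.78 to 6.80, and 5 of the 6 treated mice were below the older mean. Its log2 fold change was -0.18 ± 0.13 (interval -0.45 to 0.085; edgeR, unadjusted p 0.161), and it was also the one gene below 0 against younger mice, at -0.11 ± 0.13.

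By coefficient of variation, the nucleotide receptors P2RY12 and P2RY13 spread more widely under 3TC than in either control group. The same held for CX3CR1, CSF1R, GPR34, SALL1 and OLFML3, so it was not particular to them. TMEM119 had its smallest coefficient under 3TC (7.86%), AIF1 lay between the controls, and no difference in spread was tested. P2RY12 was at 5.12, 6.99 and 9.97 CPM, wider than in older mice at both ends, and P2RY13 at 2.77, 3.43 and 4.48 CPM, with log2 fold changes of 0.0092 ± 0.15 and 0.04 ± 0.13 against older mice. The highest mouse in both was the female DFO8. The lowest in both was the female DFO4, whose summed thalamus markers were 587 CPM against 108 to 236 in the other 17 mice. Without DFO4 the fold change of P2RY12 was 0.09 and 5 of the 9 genes were above 0, with a median of 0.02.

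GPR34 ran from 1.55 through 3.24 to 4.69 CPM in older 3TC-treated mice, a coefficient of variation of 35.1% against 24.2% in older and 15.6% in younger mice. Its fold change against older mice was -0.10 ± 0.21 on the log2 scale (interval -0.54 to 0.35), the widest interval of the 9. CX3CR1 was at 8.59, 10.8 and 14.5 CPM and CSF1R at 17.8, 22.4 and 25 CPM, with log2 fold changes of 0.0032 ± 0.13 and -0.017 ± 0.095. For CSF1R the interval was -0.22 to 0.19, narrower than that of any other receptor here.

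The remaining genes had intervals that included 0, of -0.18 to 0.14 for SALL1, -0.21 to 0.30 for AIF1 and -0.17 to 0.25 for OLFML3. SALL1 was at 8.71, 8.94 and 10.3 CPM (log2 fold change -0.023 ± 0.076), AIF1 at 2.19, 2.64 and 2.97 CPM (0.047 ± 0.12) and OLFML3 at 4.28, 5.30 and 6.16 CPM (0.038 ± 0.098). In each, treated and untreated older mice overlapped. For SALL1, 3 of 6 treated mice were below every older mouse (8.71 CPM at the lowest, against 8.82 for the lowest older mouse), and none was above.

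Against younger mice, which serve as controls in the aging comparison too, 8 of 9 genes were above 0 in older 3TC-treated mice, with a median of 0.17, and 0 of 9 passed the test, where edgeR called 0.0119% of all features. The highest value was GPR34 at 0.27 ± 0.21 and the smallest unadjusted p of edgeR was 0.0931, for AIF1 at 0.21 ± 0.12, of which 4 of 6 treated mice were above every younger mouse.

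**Figure D3:**
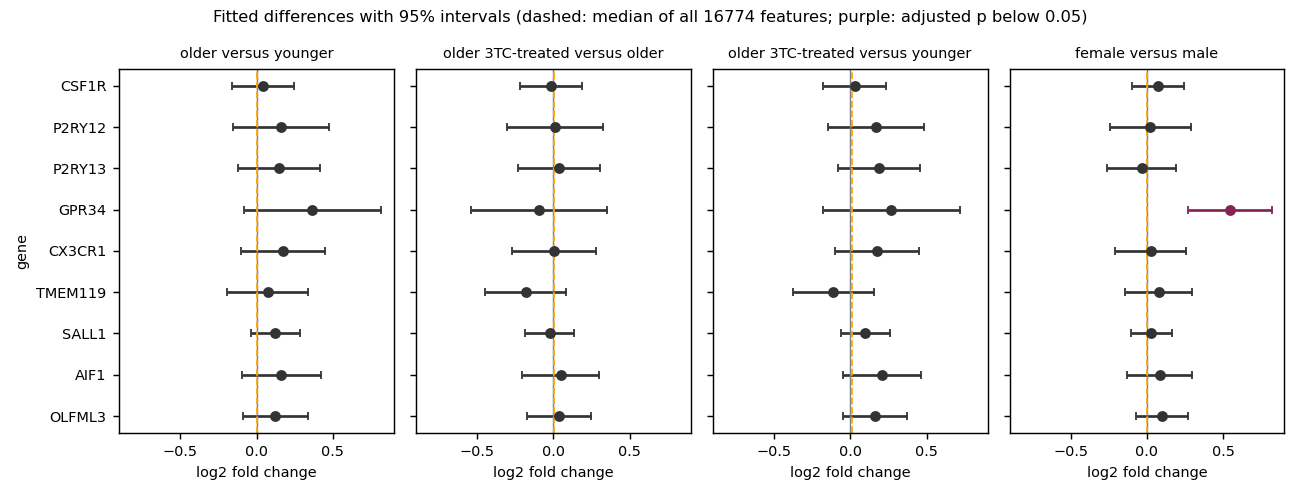
Log2 fold changes of the 9 genes fitted with edgeR, with 95% intervals, in 4 comparisons, and the median of all features as a dashed line. Every interval of the first 3 comparisons includes 0, all 9 points of the aging comparison lie above 0 (0.045 to 0.37), and GPR34 in females against males, at 0.54, is the one gene past the threshold.

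Sex gave the one call among these genes. GPR34 was higher in females than in males, by 0.54 ± 0.13 on the log2 scale (edgeR, adjusted p 0.0294), while the other 8 genes lay between -0.036 (P2RY13) and 0.10 (OLFML3) and did not pass. In younger mice the females held 2.69 to 3.28 and the males 2.06 to 2.61 CPM, in older mice 3.43 to 4.63 and 2.26 to 3.11 CPM, and in older 3TC-treated mice 3.53 to 4.69 and 1.55 to 2.96 CPM. Every female was thus above every male of its group, and the means over all 9 mice of a sex were 3.62 ± 0.71 and 2.47 ± 0.49 CPM (SD). Of all features, edgeR called 1.45% higher in females, and 0.554% had every female above every male in each group.

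GPR34 lies on chromosome X, and the difference was shared by that chromosome. Of 560 tested genes of chromosome X, 97.3% were above 0 in females, with a median log2 fold change of 0.42, 42.9% were called higher in females and 16.6% had every female above every male in each group. Of 15018 autosomal genes, 1 was called higher. The size of the shift fell with the level of the gene. With the chromosome X genes divided into 4 bins of 140 by counts per kb, from lowest to highest, the medians were 0.90, 0.72, 0.31 and 0.12.

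At 59.7 counts per kb on average, GPR34 belonged to the third bin, where it exceeded 92.1% of the genes, and among all 560 it exceeded 57.5%. Its host CASK, also X-linked, had a log2 fold change of 0.26 between the sexes (edgeR, adjusted p 1). GPR34 was also only 1.46-fold above the level of the other-tissue genes. Whether reads from genomic DNA, in which females carry more of chromosome X, add to these counts was not tested, nor was the part of the chromosome-wide shift or of reads from CASK in the GPR34 difference, so the call cannot be read as a difference in microglial expression. The call also depended on single mice: leaving out any of YM2, YF2, DMO2, DFO8, DFO5, CMO6, CMO1 or CFO3 gave an adjusted p of 0.0504 to 0.0844 in edgeR, at fold changes of 0.49 to 0.55, while leaving out any of the other 10 kept it under the threshold.

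**Figure D4:**
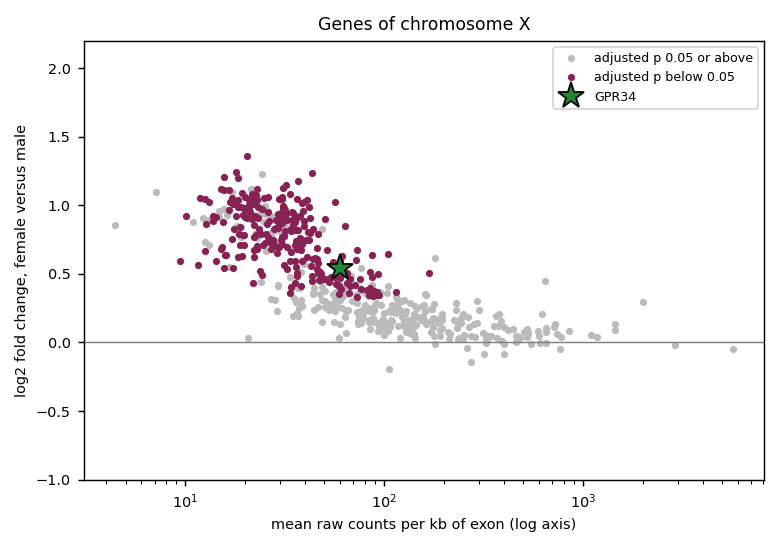
Log2 fold change of females against males for the 560 tested genes of chromosome X, against mean raw counts per kb of exon (log axis), with genes past the threshold in purple and GPR34 as a star. Low-level genes lie near 0.90 and high-level genes near 0.12, and GPR34 lies at 0.54 and 59.7 counts per kb.

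Whether the aging and 3TC differences themselves differed between the sexes was tested as an interaction. With edgeR, 0 of 9 genes passed for aging and 0 of 9 for 3TC, where 0% of all features were called in each. Unadjusted p-values under 0.05 numbered 32 (0.191%) and 1292 (7.7%) over all features and 0 among these genes in both. DESeq2 called 0 of 9 in both. P2RY12 had the widest difference for 3TC, 0.53 ± 0.29 higher in females than in males (interval -0.088 to 1.15; edgeR, adjusted p 0.447). Its females were at 5.12 to 9.97 CPM under 3TC against 5.38 to 7.66 CPM without it, and its males at 5.75 to 7.17 against 7.03 to 8.97 CPM. In CSF1R, the 3 treated females were above the 3 treated males (23.2 to 25 against 17.8 to 21.6 CPM), a separation that younger and older mice did not show, and the interaction stood at 0.27 ± 0.19 (edgeR, adjusted p 0.45).

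The ligands and enzymes that act on these receptors were compared next. Of 15 ligands and partners, 0 passed in either comparison with edgeR, 7 were above 0 with aging (median -0.0091) and 10 with 3TC (median 0.05). IL34, the neuronal ligand of CSF1R, was at 7.31 ± 0.75 CPM in younger, 7.09 ± 0.73 in older and 6.62 ± 0.58 in older 3TC-treated mice (SD, n = 6), and CSF1, its other ligand, at 10.3 ± 0.55, 11.2 ± 0.95 and 11.1 ± 1.17 CPM. CX3CL1, which encodes fractalkine, was at 67.7 ± 11.5, 61.1 ± 11.8 and 60.6 ± 13.8 CPM. Neither aging nor 3TC moved the mean of IL34 or CX3CL1 beyond the spread between mice. CSF1 had log2 fold changes of 0.11 ± 0.083 with aging and -0.0099 ± 0.083 with 3TC (SE).

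Among the enzymes that set extracellular nucleotides, ENTPD1, which degrades ATP and ADP, had log2 fold changes of 0.05 ± 0.11 with aging and 0.09 ± 0.11 with 3TC, and ENTPD2, which forms ADP from ATP, -0.17 ± 0.12 and 0.11 ± 0.12. P2RX4, an ATP-gated channel, stood at -0.039 ± 0.11 and 0.16 ± 0.11.

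Of 16 lineage factors and TGF-beta pathway genes, 0 passed with edgeR, 13 were above 0 with aging (median 0.07) and 7 with 3TC (median -0.013). SPI1, which encodes PU.1, was at 2.64 ± 0.53, 2.67 ± 0.87 and 2.69 ± 0.60 CPM in the younger, older and 3TC-treated groups, and IRF8 at 5.40 ± 1.26, 5.92 ± 1.14 and 5.69 ± 0.90 CPM. TGFB1, the cytokine that maintains the homeostatic state, had log2 fold changes of -0.057 ± 0.14 and 0.15 ± 0.14, and its receptor TGFBR1 0.09 ± 0.12 and -0.066 ± 0.12. CEBPA, a myeloid factor, had the smallest unadjusted p of the list with 3TC, 0.0702 in edgeR, at -0.20 ± 0.11, and 0.00031 ± 0.11 with aging.

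The wider microglial signature lay on the same side of 0 as the 9 genes with aging, at a lower median. Of 27 further signature genes in the table, 21 were above 0 with aging (median 0.08), 15 with 3TC (median 0.0029), and 0 passed with edgeR in either. CTSS, the lysosomal protease cathepsin S, was at 12.6 ± 2.40 CPM in younger, 16.2 ± 3.04 in older and 17.6 ± 4.86 in older 3TC-treated mice, an aging fold change of 0.37 ± 0.17 with the list's smallest unadjusted p, 0.0425 in edgeR. The complement gene C1QA was at 5.91 ± 0.35, 7.07 ± 1.22 and 7.95 ± 2.43 CPM. HPGDS, a prostaglandin D synthase, had an aging fold change of 0.26 ± 0.13, and C1QB of 0.31 ± 0.18. HPGDS, at 24.6 counts per kb, lay below the 39.8 of the other-tissue genes, and C1QB, at 212, above it.

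Genes of activated and disease-associated microglia gave a like picture, with 13 of 18 above 0 with aging (median 0.06), 8 with 3TC (median -0.0059) and 0 passing with edgeR. CLEC7A, a beta-glucan receptor raised in reactive microglia, was at 1.66 ± 0.42, 2.05 ± 0.57 and 2.04 ± 0.31 CPM. The chemokine CCL3 had an aging fold change of 0.46 ± 0.27, at means of 0.735, 1.01 and 1.1 CPM and as few as 15 counts in a mouse. CSN2, a gene of another tissue, was at a like level (0.783, 0.984 and 1.05 CPM), with an aging fold change of 0.333 ± 0.265. CPM makes no allowance for gene length, and the source of the CCL3 counts was not tested. The value of CCL3 is therefore not read as a microglial change. SPP1, which encodes osteopontin, had the list's smallest unadjusted p with 3TC, 0.0203 in edgeR, at 0.63 ± 0.25. Older 3TC-treated mice ran from 1.94 to 6.80 CPM and older mice from 1.49 to 2.99, so the ranges overlapped. The SD was 1.78 CPM around a mean of 3.26 in treated mice, against 0.49 around 2.11 in older mice. The part of single mice or of dissection in the SPP1 value was not tested.

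Markers of other cells were read beside these values. Border-associated macrophages, which share AIF1, CSF1R and CX3CR1 with microglia, had 3 of 8 markers above 0 with aging (median -0.022) and 5 with 3TC, and their summed level was 27.8 to 51.0 CPM in younger, 31.3 to 50.2 in older and 27.1 to 52.4 in older 3TC-treated mice. Blood leukocyte markers had 8 of 11 above 0 with aging (median 0.06) and 5 with 3TC, at sums of 9.97 to 25.3, 11.7 to 27.4 and 9.69 to 26.7 CPM. No gene of these 2 lists passed with edgeR in either comparison. PF4, a marker of border-associated macrophages, had mean levels of 0.858, 0.696 and 0.843 CPM in younger, older and 3TC-treated mice. S100A9 of neutrophils was at 0.548, 0.643 and 0.705 CPM, and CSN2, a gene of another tissue, at 0.783, 0.984 and 1.05 CPM. CPM makes no allowance for gene length, and the source of these low counts was not tested. The values of PF4 and S100A9 are therefore not read as a sign of these cells.

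Dissection markers varied far more than the 9 genes. Choroid plexus markers summed to 63.8 to 985 CPM over all mice, with 8 of 10 above 0 with aging (median 0.11) and 0 of 10 with 3TC (median -0.58). Thalamus markers had 0 of 10 above 0 with aging (median -0.20) and 10 of 10 with 3TC (median 0.63), their sum in DFO4 being the highest. Astrocytes (4 of 8 above 0 with aging, 5 with 3TC), oligodendrocytes (6 and 8 of 8), hippocampal neurons (2 and 3 of 9), endothelial cells (1 and 6 of 6), pericytes and smooth muscle (2 and 6 of 8) and meningeal fibroblasts (3 of 10 in both) held no gene past the threshold in edgeR. The part of tissue composition in the values of the 9 genes was not tested.

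Across mice the 9 genes did not behave as one unit. With group means removed, the 36 pairs had a median Pearson r of 0.27 over 18 mice, 6 pairs were above 0.5 and 10 below 0. The highest was P2RY12 with CX3CR1 at 0.74, and CSF1R reached 0.66 with CX3CR1, 0.66 with OLFML3, 0.65 with P2RY12 and 0.60 with GPR34. AIF1, P2RY13 and SALL1 stood aside, with median r to the other members of 0.0027, 0.02 and 0.06, against 0.46 for CSF1R and 0.36 for CX3CR1. These 3 were only 1.55-, 1.37- and 1.71-fold above the other-tissue level, and GPR34 (1.46-fold) and OLFML3 (0.895-fold) were also near it. The part of a gene's level in these r values was not tested. The lowest pair was P2RY13 with TMEM119 at -0.34. These are descriptions, since the values of one mouse share its library, its depth and its share of repeats.

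**Figure D5:**
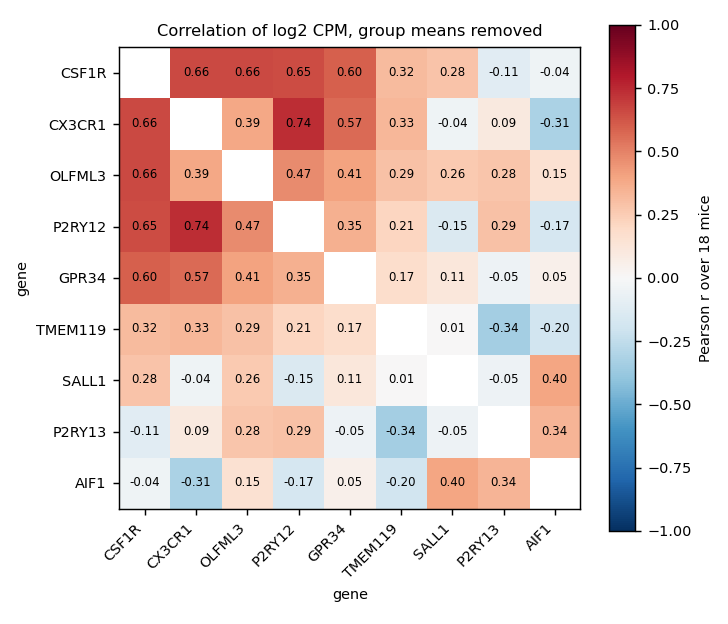
Pearson r of log2 CPM between each pair of the 9 genes over 18 mice after removal of the group means, on a colour scale from -1 to 1. CSF1R, CX3CR1, OLFML3, P2RY12 and GPR34 form the red block, with values up to 0.74, while AIF1, P2RY13 and SALL1 have pale or blue cells with most of the others, down to -0.34.

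A division that was alike only in part appeared against a property of the libraries. With group means removed, the log2 ratio of repeat to gene counts in a mouse had an r of -0.79 with CX3CR1, -0.79 with CSF1R, -0.67 with P2RY12 and -0.49 with TMEM119, but 0.37 with AIF1, 0.32 with P2RY13 and -0.031 with SALL1, and a median of -0.064 over the other genes. The 3 genes with the most counts per kb were thus lower in mice with a higher repeat share, and AIF1, P2RY13 and SALL1 were not. GPR34 (-0.39) and OLFML3 (-0.34) lay between, less negative than TMEM119, although TMEM119 was less correlated with the other members. When the repeat share was added to the model, the aging fold changes of CX3CR1, P2RY12 and CSF1R were 0.21 ± 0.084, 0.19 ± 0.12 and 0.07 ± 0.056 (SE). All 9 genes were then above 0 and 0 of 9 passed with edgeR. In that fit 4 of all features were called and 667 had an unadjusted p under 0.05, against 67 without the term.

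Likeness to the 9 genes was taken as the Pearson r of log2 CPM with the mean of their standardized values over the 18 mice. Group means were removed from both, so this r leaves out differences between groups. The genes most alike were NHP2 (r 0.83), CDK4 (0.83), GFAP (0.82), RPL31 (0.82) and TAF9B (0.82), out of 15626 genes ranked. GFAP, the intermediate filament of astrocytes, was at 69.8 ± 11.1 CPM in younger, 98.5 ± 24.3 in older and 90.3 ± 34.5 in older 3TC-treated mice. None of the 50 genes most alike was on a microglial list. Among the 27 further signature genes the likeness followed the level. The 9 of them with the most counts per kb (114 to 3340) had a median r of 0.57 and 8 above 0, led by CST3 (0.74), CTSS (0.72) and C1QA (0.68). The 9 in the middle (59.6 to 99.9 counts per kb) had a median of -0.097, and the 9 lowest (17.4 to 58.8) a median of -0.31 with 1 above 0, TREM2 being at -0.30 and PTAFR at -0.65.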

How the data were processed

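Hippocampal RNA of 18 mice was sequenced after removal of ribosomal RNA, per the paper's methods, although the labels give polyA RNA. The authors deposited whole-number counts per gene and per repeat subfamily, not normalized. They aligned reads to mm10 with STAR, kept reads with several locations, and analyzed repeats with both TEtranscripts, which counts against RepeatMasker and gave the counts tested with the genes, and RepEnrich2. Tool versions, the gene annotation and the strand setting are not given in the sources used here. Reads of nested or antisense genes may therefore enter a member's count.

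Counts of 16774 features (15635 genes and 1139 repeats, mean count above 10) entered the quasi-likelihood test of edgeR (version 4.0.16, R 4.3.3) with all 18 mice and TMM scaling, and p-values were adjusted by Benjamini-Hochberg over all features, at a threshold of 0.05. Group comparisons used one model, the sex comparison added group as a term, and sex interactions used 6 groups. Intervals are 95%. Fold changes are log2, and log2 CPM used a prior count of 2. DESeq2 1.42.0, other scalings, filters, terms and left-out mice were alternatives. Levels per kb used merged GENCODE vM21 exons, matched by symbol for 15587 of 15644 genes. Figures were drawn with matplotlib 3.10.9. The script was tested on simulated data.

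The members and gene lists were chosen with earlier results of these data known. Named genes are all members, up to 4 genes of each other list with the smallest p for aging or 3TC, the 5 genes most like the members' mean, and their known ligands, enzymes and factors, not all of which are described. The genes given by their likeness from the signature list, and MED12L and CASK, were named after their values were seen. Groups, sexes and ages came from the labels. No mouse was left out of the main results, and all 153 pairs of libraries differed by more than counting error (chi-square of 3.1 or more per degree of freedom). No paired fit is the main one, since label numbers name mice.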

Additional observations from a re-analysis of the deposited data

How the results depend on the processing

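The count of members past the threshold stayed at 0 for aging, for 3TC, for 3TC against younger mice and for both sex interactions under every alternative tried for each, including every left-out mouse. Of the 279 alternative values of single members in each group comparison, 275 kept their direction with aging, 247 with 3TC and 274 for 3TC against younger mice, and none passed the threshold. Nearly all that turned were values close to 0, and the cause was not tested.

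With 3TC, CX3CR1 (0.0032 as reported) became -0.000664 with DESeq2, -0.000663 with RLE size factors, -0.00755 with genes only, -0.0024 with the 2 groups compared only, -0.0228 with the repeat share as a term and -0.00455 without DFO4, YM1 and CFO2 together, a setting chosen after seeing the data, and P2RY12 became -0.00679 with the repeat share as a term. With total counts only, which moves the median of all features by -0.065 with aging, CSF1R became -0.0257 with aging, 0.00936 with 3TC and -0.0164 for 3TC against younger mice, and GPR34 between the sexes was 0.512 and no longer passed (edgeR, adjusted p 0.699), leaving 0 members past that threshold. The other alternatives for this comparison that left out no single mouse, all chosen after seeing the data except DESeq2, kept the call, with adjusted p-values of 0.000821 to 0.0434 over edgeR and DESeq2 settings.

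Leaving out 1 mouse at a time gave 0.466 to 0.583 for GPR34 between the sexes and 0 to 1 members past the threshold, the call being lost in 8 of 18 cases (edgeR, adjusted p 0.0504 to 0.0844). The ranges that crossed 0 were -0.0139 to 0.15 for TMEM119 with aging, -0.0147 to 0.0802 for CSF1R in 3TC against younger mice and, with 3TC, -0.0974 to 0.0948 for P2RY12, -0.0395 to 0.105 for P2RY13, -0.0895 to 0.0654 for CX3CR1, -0.0597 to 0.0352 for CSF1R, -0.247 to 0.0375 for GPR34, -0.0554 to 0.0164 for SALL1 and -0.00847 to 0.0936 for OLFML3. The members above 0 with 3TC then numbered 1 (without DFO8) to 7 (without DMO5), and with aging 8 or 9.

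Mice of one sex share some label numbers between groups, but the numbers did not pair them: the deviations of same-numbered mice correlated at -0.547, -0.0355 and 0.0786 with aging, 0.17 with 3TC and 0.303, 0.000493 and 0.134 for 3TC against younger mice, so that not every pair was over 0.1 where 3 pairs could be had. A fit with sex and label number as a replicate block turned TMEM119 to -0.000799 and CX3CR1 to -0.0533 with aging, GPR34 to 0.153 and AIF1 to -0.0842 with 3TC, and CSF1R to -0.00119 for 3TC against younger mice, and called 0 of all features in each. The planned legacy setting of edgeR is its default here and so equals the reported fit. Depth limits GPR34 and AIF1 most, which had as few as 53 and 74 counts in a mouse, and intervals reach 0.82 for GPR34 with aging. Of 27 tests for a mouse far from the rest of its group, over 9 genes and 3 groups, 0 passed, where chance gives about 1 in 20.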
